A study of Mus musculus with 13 samples.

Results

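H3K4me3 was compared between 2 mouse pre-T leukaemia lines that carry the NUP98-PHF23 fusion (NP23) and 1 pre-T line that carries SCL and LMO1 in its place. The control line is 7298/2 and the NP23 lines are 748T and 106A. Their peak lists were restricted to the 19 autosomes, and peaks that overlapped between lists were merged. This gave 20690 regions from 49817 peaks, of 109165 peaks deposited for the 9 lists of the series. The 3 libraries are 3 of 13 samples.

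The 748T and 106A lines were derived from NUP98-PHF23 pre-T LBL of different C57BL/6 mice, mouse 748 and mouse 106, and form the NP23 pre-T group. The control was derived from an SCL-LMO1 pre-T LBL on a hybrid C57BL/6 and C3H background. All 3 lines are described as lymphoblasts that grow without cytokines, and no further treatment or age is given. Each line had 1 H3K4me3 library, and the NP23 lines are separate lines, not repeats of a culture. Oncogene, strain and individual line therefore cannot be told apart in the control, and no test of NP23 against control was run on 2 lines against 1, where the only spread within a group comes from 1 pair of lines. A difference was called only where both NP23 lines departed from the control in the same direction. The difference between 748T and 106A is given beside the calls as a scale of disagreement and set no cutoff. The labelled lineage was not checked against marker genes, because the gene table at hand is on another genome build (GRCm38.p6) than the peaks (mm9).

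H3K4me3 is laid down at the start sites of active and poised genes by the COMPASS and MLL methyltransferases, and exceptionally broad H3K4me3 domains are known at genes of cell identity. PHF23 contributes a PHD finger, a fold that reads H3K4me3, to the fusion, and NUP98 fusions are known in leukaemia for high expression of HOXA genes. SCL (TAL1) and LMO1 are partners in a transcription factor complex that is misexpressed in T-cell leukaemia.

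The 3 lists were of similar size. 748T had 16994 autosomal peaks, 106A had 15793 and the control had 17030, with median widths of 1013.5, 1138 and 1068 bp. Peak height is the maximum read pileup, and its median was 77 reads in 748T, 99 in 106A and 78 in the control. Heights were compressed at the top: over the regions found in all 3 lines, the range from the 50th to the 90th percentile was 108 to 144 reads in 748T, 122 to 160 in 106A and 111 to 133 in the control. Read totals are not given, so depth is unknown, heights were called only by rank within a list, reads printed for several lines are each line's own unscaled maximum, and a missing peak means below the authors' unstated threshold. Fewer cells with the mark and less mark per cell cannot be told apart in such bulk material.

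Most of the mark was common to the lines. Peaks of all 3 lines met in 10922 regions (52.8% of 20690, exact 95% interval 52.1 to 53.5), with a median region width of 1737.5 bp. The intervals cover counting error only. Both NP23 lines and not the control listed 848 regions (4.10% of all regions, interval 3.83 to 4.38). The control alone listed 2835 regions (13.7%, interval 13.2 to 14.2). By construction the first count needs a peak in 2 lists and the second in 1 list. The remaining patterns give the scale of disagreement within the group: 748T alone listed 2186 regions, 106A alone 1682, 748T and control without 106A 1430, and 106A and control without 748T 787. The count for the NP23 pair thus lay between those of the pairs that join 1 NP23 line with the control.

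**Figure D1:**
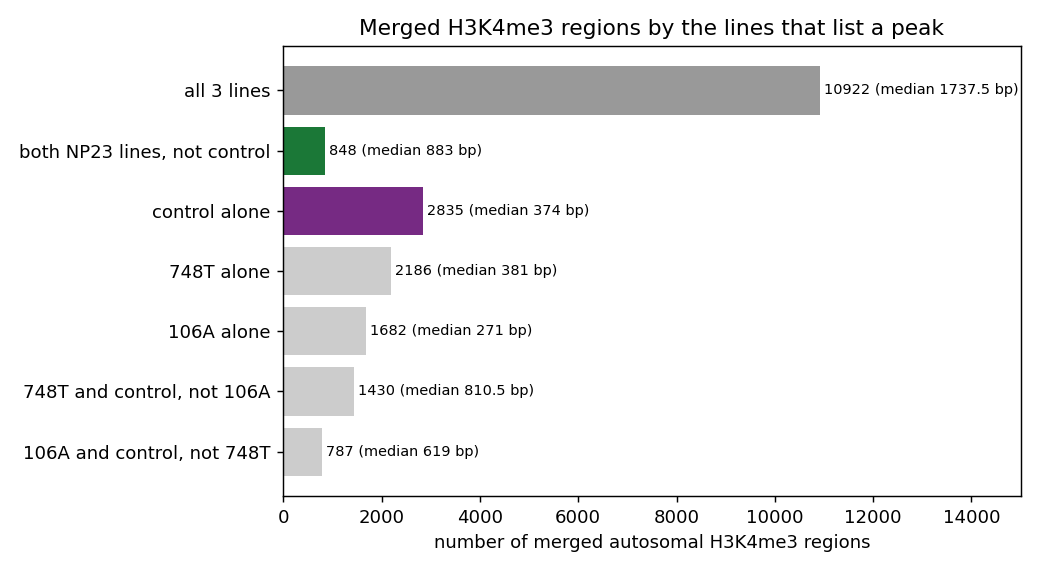
Number of merged autosomal H3K4me3 regions (x axis) for each pattern of lines that list a peak (y axis), with the median region width in bp beside each bar. The 848 regions of the NP23 pair lie between the 787 and 1430 regions that 1 NP23 line shares with the control.

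The called regions were mostly low and narrow, and those of the NP23 pair less so than those of single lines. Regions of both NP23 lines missing in the control had a median height of 32.5 reads in 748T and 49 reads in 106A, against 108 and 122 reads in the shared regions. Their median region width was 883 bp, and 107 of them were 2 kb or wider. Regions of the control alone had a median height of 18 reads and a median width of 374 bp, and 68 were 2 kb or wider. A region of 2 lists spans the peaks of both, and for the NP23 pair each line's own median was 637 bp in 748T and 729 bp in 106A. Median region width was 810.5 bp for 748T with the control (117 of 2 kb or wider) and 619 bp for 106A with the control (69). The width of the NP23-pair regions was thus near that of the first of these mixed pairs. Regions above the 50th percentile of height in every line that listed them numbered 95 of 848 (11.2%) for the NP23 pair and 72 of 2835 (2.54%) for the control. The same share was 5.45% and 2.67% for the pairs that mix an NP23 line with the control. When each list was reduced to its 7896 tallest peaks, the NP23 pair gave 516 regions (5.70% of 9050) and the control alone 563 (6.22%). With the taller 50% of each list they were 382 (4.03% of 9473) and 612 (6.46%), so the size of the control-only excess depended on how tall peaks were chosen. A peak missing from such a reduced list may still be listed below the height cut.

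**Figure D2:**
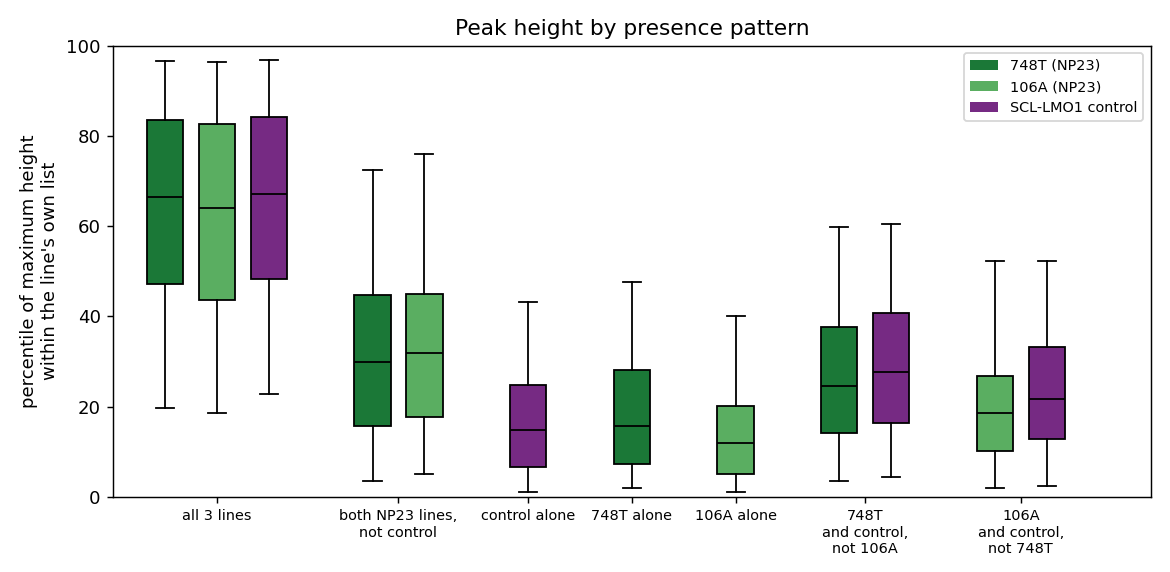
Percentile of maximum height within each line's own autosomal list (y axis) for each presence pattern (x axis). Boxes span the quartiles with the median as a line, and whiskers run from the 5th to the 95th percentile. Medians were 29.96 and 31.9 for the NP23 pair and 14.7 for the control alone, against 64.0 to 67.2 for regions of all 3 lines.

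The widest region of the NP23 pair lay on chromosome 6 from 52165648 to 52185472 and was 19825 bp long. Peaks of 748T filled 19649 bp of it and peaks of 106A 19011 bp, with maxima of 140 and 159 reads. The control had no peak there. As background from general knowledge of the mm9 map, and not from a table used here, this stretch belongs to the Hoxa cluster, a row of homeobox transcription factor genes that set body position in the embryo and act in blood progenitors. The cluster was named after the values were seen, no value rests on the name, and single genes were not assigned to peaks. The same cluster held further called regions. In the 160 kb from 52100001 to 52260000, 6 of 12 regions were of the NP23 pair, none was of the control alone, and the listed peaks summed to 37.9 kb in 748T, 30.1 kb in 106A and 0.346 kb in the control.

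The flanks of this domain showed where the NP23 lines differed from each other. The region from 52160584 to 52164666 was 3676 bp in 748T and 3457 bp in 106A, and the region from 52186515 to 52191544 was 5030 bp in 748T and 2744 bp in 106A. Both lines therefore marked them, with the second narrower in 106A. From 52193482 to 52199793 only 748T had a broad peak, of 6312 bp and 133 reads, where the control had 346 bp and 31 reads and 106A had none. Smaller peaks of both NP23 lines lay at 52108117 (1186 and 1724 bp) and at 52208840 (1020 and 1999 bp). The nearest regions listed in all 3 lines with at least 100 reads in each were taken as flanks. At 51416637 to 51422923 all 3 lines carried a broad peak, with 141 reads in 748T, 154 in 106A and 159 in the control. At 52588544 to 52590327 the maxima were 117, 133 and 125 reads. These flanks lay 742.7 and 403.1 kb from the domain, and the choice itself required a tall control peak.

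Called regions were also dense next to the cluster on its lower-coordinate side. In the 1 Mb from 51100001 to 52100000, 10 of 19 regions were listed in both NP23 lines and missing in the control, and none was of the control alone. The tallest of them were 51961855 to 51963659, with 129 reads in 748T and 138 in 106A, and 51219498 to 51220993, with 112 and 141 reads. Of the 10 runs of at least 3 consecutive NP23-pair regions in the genome, 2 fell here. The control's 3 listed peaks in this stretch summed to 6.37 kb, of which the broad peak at 51416637 was 5776 bp.

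The next widest region of the NP23 pair lay on chromosome 19 from 32828950 to 32836439. Its peaks were 7335 bp and 145 reads in 748T, and 6184 bp and 153 reads in 106A. The control listed nothing over the surrounding 275.3 kb, from 32755938 to 33031235, where 748T had 6 peaks and 106A had 3. Among these was a second region of both NP23 lines, 32785537 to 32787461, with 121 reads in 748T and 113 in 106A. None of the 3 lines listed H3K27me3 in the gap. The lists hold values only at peaks, so whether the control keeps the DNA of this gap was not tested. The same holds wherever a line listed no peak. In the flanks chosen by the same rule, the maximum was 116 reads in the control, 104 in 748T and 121 in 106A at 32559694 to 32563825, and 125, 147 and 171 reads at 34266384 to 34269228. They lay 192.1 kb before and 1235 kb past the gap.

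The other 6 of the 8 widest regions of the NP23 pair were 4300 to 5388 bp long. On chromosome 11 from 88934688 to 88940075 the peaks were 4566 bp in 748T and 5039 bp in 106A, with 116 and 141 reads. On chromosome 19 from 58525893 to 58531197 they were 5305 and 3454 bp, with 139 and 78 reads, and the nearest control peak was 454.4 kb away. H3K27me3 peaks of 106A covered 49.1% of this region. The regions on chromosome 1 (166384039 to 166388983) and chromosome 7 (75096761 to 75101092) were narrower in 748T (1846 and 2578 bp) than in 106A (4797 and 4294 bp). On chromosome 4 from 117165305 to 117169604 the agreement was thin, with 4300 bp and 113 reads in 106A but 265 bp and 9 reads in 748T. The last of the 8 was the flank of the chromosome 6 domain given above.

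**Figure D3:**
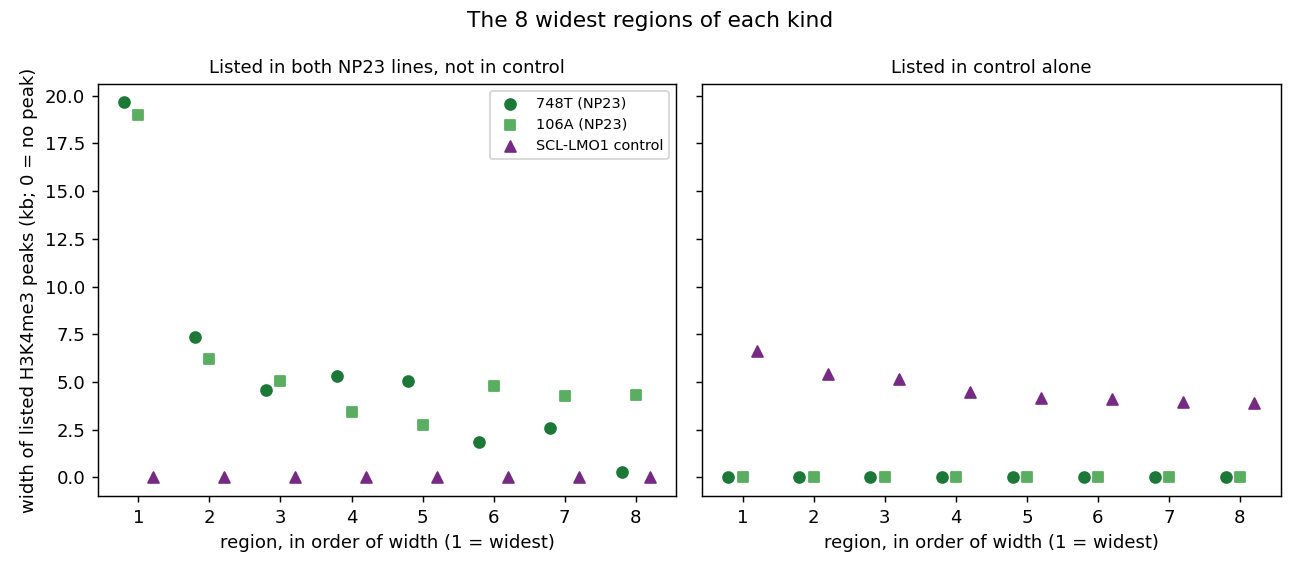
Summed width in kb of the listed H3K4me3 peaks (y axis) in each line for the 8 widest regions of the NP23 pair (left) and of the control alone (right), in order of region width (x axis). The first region of the NP23 pair, with 19649 bp in 748T and 19011 bp in 106A, stands above all others, and the control-only regions reach 6617 bp at most.

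Regions of the control alone were narrower at the top of the list. The widest were chromosome 3 from 86346539 to 86353155 (6617 bp, 133 reads), chromosome 2 from 104246472 to 104251907 (5436 bp, 126 reads) and chromosome 5 from 58104913 to 58110095 (5183 bp, 89 reads). The nearest peak of 748T was 299.6, 81.1 and 3612 kb away. The first belonged to a run of 5 consecutive control-only regions (86051130 to 86487054) and the second to a run of 3 (104148567 to 104254725). The next 5 lay nearer to peaks of the NP23 lines. On chromosome 3 from 130673184 to 130677671 (4488 bp, 108 reads) the nearest peaks were 3.09 kb away in 748T and 2.45 kb in 106A, within a 400 kb stretch where the control's peaks summed to 38.8 kb and those of 748T and 106A to 23.9 and 26.2 kb. The regions on chromosome 15 at 82170757 (3973 bp, 112 reads) and 81852632 (3886 bp, 74 reads) had the nearest peak of 748T 0.95 and 2.54 kb away and that of 106A 0.810 and 2.21 kb away. Those on chromosome 9 at 44848671 (4145 bp, 54 reads) and chromosome 11 at 58245507 (4112 bp, 31 reads) were low.

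Some control-only regions came in runs. There were 185 runs of 3 or more consecutive regions, holding 692 of the 2835 regions. The NP23 pair had 10 runs holding 33 of 848 regions. These counts depend on how many regions were called, which was not allowed for. The longest, 12 regions on chromosome 2 from 175000895 to 177282774, reached 60 reads at most. Others of 8 regions lay on chromosome 1 from 145854496 to 146622607 (at most 31 reads) and on chromosome 4 from 9063227 to 10787633 (at most 109 reads). Across chromosomes the control-only share ran from 10.3% on chromosome 15 to 19.1% on chromosome 18, and the NP23-pair share from 3.04% on chromosome 18 to 5.89% on chromosome 4.

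Where all 3 lines carried the mark, its width changed little. The log2 ratio of summed peak width to the control had a median of -0.07 in 748T (SD 0.51) and 0.03 in 106A (SD 0.56) over the 10922 shared regions. The SD of the log2 ratio between 748T and 106A was 0.58, so the NP23 lines differed from each other in width by as much as each differed from the control. Both NP23 lines were at least 2-fold wider in 127 regions (1.16% of shared regions) and at least 2-fold narrower in 123 (1.13%). Between the NP23 lines, 323 shared regions (2.96%) were at least 2-fold wider in 748T than in 106A and 469 (4.29%) at least 2-fold narrower. These larger counts rest on 1 contrast, where a call needs 2. In 122 of the regions called wider and 108 of those called narrower the smaller of both differences exceeded the difference between the NP23 lines. The rule favours this outcome, because both lines had to pass 2-fold in the same direction, so it lends the calls no separate weight. Both ratios divide by the same control library.

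**Figure D4:**
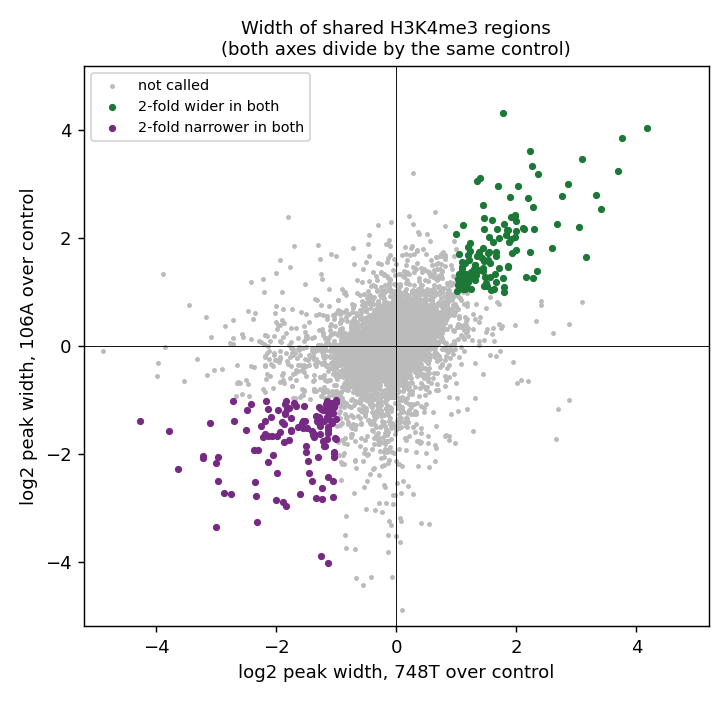
Log2 ratio of summed H3K4me3 peak width to the control in 748T (x axis) and 106A (y axis), 1 point for each of the 10922 shared regions, with the 127 regions called wider and the 123 called narrower in colour. Both axes share the control, which places points along the diagonal. Most points lie within 1 log2 unit of 0.

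Most called widths belonged to small peaks. The 127 wider regions had median widths of 967 bp in 748T, 1002 bp in 106A and 267 bp in the control. The 123 narrower regions had 335, 363 and 1113 bp. In only 6 wider and 13 narrower regions did both NP23 lines differ from the control by 2 kb or more. Of the wider regions, 31 were also called higher in rank, and of the narrower ones 12 were called lower.

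The clearest widening was on chromosome 9 from 69605366 to 69613245, where 748T had 7305 bp, 106A 7865 bp and the control 3086 bp. On chromosome 3 from 78978889 to 78986395 the widths were 4664, 7507 and 1994 bp, and the maxima 152, 199 and 55 reads. This region was also among the 5 with the largest gain in rank. On chromosome 7 from 134161016 to 134165550 the control had 1529 bp against 4203 and 4535 bp in the NP23 lines. On chromosome 11 from 120094279 to 120099447 it had 2259 bp against 5163 and 5141 bp, and on chromosome 6 from 142909400 to 142913716 it had 804 bp against 3154 and 4303 bp. The NP23 lines exceeded the control without overlap in each of these 5 regions, as the rule requires.

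The clearest narrowing was on chromosome 6 from 41084463 to 41090724, where the control had 5806 bp and 115 reads, 748T 468 bp and 18 reads, and 106A 1199 bp and 52 reads. A neighbouring region from 41068161 to 41072179 kept its width (4019 bp in the control, 3073 and 3429 bp in the NP23 lines) but reached 145 reads in the control against 71 in 748T and 65 in 106A. On chromosome 4 from 88782680 to 88789220 the NP23 lines agreed closely, with 1768 and 1868 bp against 6450 bp in the control. They agreed less on chromosome 14 from 30833212 to 30842099 (1978 and 4379 bp against 8888 bp) and on chromosome 17 from 43803102 to 43809014 (632 and 1408 bp against 5913 bp). On chromosome 16 from 31660728 to 31668622 the widths were 1406 and 3456 bp against 7895 bp. In that place 2 control-only regions lay alongside, so the control's peaks summed to 12.4 kb over 40 kb against 1.41 and 3.46 kb.

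At the cutoffs used, more regions were called by height rank than by width, but the cutoffs are not alike. The 2-fold width cutoff is 1 log2 unit, against SDs of 0.51 in 748T and 0.56 in 106A. The rank cutoff of 20 points lay near the SDs of the rank differences given below. The counts therefore do not show which measure differed more. For each list the shared regions were ranked by maximum height from 0 to 100, and a gap of 20 points or more in both NP23 lines was called. This gave 974 regions higher in the NP23 lines (8.92% of shared regions) and 1007 lower (9.22%). The SD of the rank difference was 19.5 points for 748T and 22.9 for 106A against the control, and 15.995 between the NP23 lines. Between the NP23 lines, 898 shared regions (8.22%) ranked at least 20 points higher in 748T than in 106A and 1009 (9.24%) at least 20 points lower. These counts, close to those called, rest on 1 contrast, where a call needs 2. Because heights were compressed, 20 points near the middle of the list, from the 40th to the 60th percentile, came to 19 reads in 748T, 20 in 106A and 14 in the control. Ranking within the whole autosomal list in place of the shared regions gave 482 higher and 613 lower regions.

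The largest rank differences were tall peaks in one group and modest ones in the other. On chromosome 5 from 140981564 to 140982891 the maximum was 143 reads in 748T, 171 in 106A and 34 in the control, and the rank was 80.01 and 86.7 points higher in the NP23 lines. On chromosome 6 from 47728303 to 47729338 it was 142, 168 and 50 reads with little change in width (805, 888 and 1009 bp). On chromosome 14 from 122195931 to 122198215 it was 130, 169 and 23 reads, and on chromosome 16 from 4877382 to 4880457 it was 156, 185 and 79 reads. In the other direction, chromosome 16 from 92465702 to 92466481 reached 155 reads in the control, 35 in 748T and 63 in 106A. The control reached 177 reads at chromosome 16 from 91545630 to 91548573 (75 and 49 in the NP23 lines) and 170 reads from 91406050 to 91407422 (83 and 77). On chromosome 6 from 49162690 to 49168057 it reached 144 reads over 5289 bp, against 30 and 91 reads over 1481 and 672 bp.

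In 3 blocks of the genome, singled out after their values were seen, calls were frequent and mostly of 1 direction. The blocks held 2.81% of the shared regions, 82 of the 974 higher calls (8.42%) and 67 of the 1007 lower calls (6.65%), so most calls lay elsewhere. On chromosome 16 from 0 to 25 Mb, 79 of 141 shared regions (56.0%) were higher in both NP23 lines and none was lower. Distal to 90 Mb on the same chromosome, 17 of 59 (28.8%) were lower and 2 were higher. On chromosome 6 from 25 to 50 Mb, 50 of 107 (46.7%) were lower and 1 was higher. Outside the blocks, chromosome 15 had 93 of 483 shared regions higher (19.3%) and 5 lower. Median heights in the control were 77, 166 and 133 reads in the 3 blocks, in the order given above, against 111 reads over all autosomes. In 748T they were 113, 105 and 101 reads against 108, and in 106A 131, 147 and 114 reads against 122. All 5 of the regions with the largest rank loss lay in the chromosome 6 and distal chromosome 16 blocks.

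The second track in the lists moved with these blocks in the control. Its meaning is not given in the files. Its values are low, and it was taken for a background signal on that ground alone. Its autosomal median was 0.202 in 748T, 1.47 in 106A and 1.09 in the control. Values relative to this median therefore rest on the least signal in 748T. On that scale the second track stood at 0.487 in the control on chromosome 16 from 0 to 25 Mb. It stood at 2.51 distal to 90 Mb and at 1.58 on chromosome 6 from 25 to 50 Mb. In 748T the same ratios were 0.911, 1.08 and 0.812, and in 106A 1.10, 1.39 and 0.891. In the remaining 257 windows of 5 Mb with at least 15 shared regions it ranged from 0.536 to 1.18 in the control, and from 0.764 without the lowest window. At the flank of the chromosome 6 domain from 51416637 it stood at 1.62 in the control, 0.414 in 748T and 0.783 in 106A. At the flank from 52588544 it stood at 1.00, 1.12 and 0.719. These flank values are of single peaks. Distal to 90 Mb on chromosome 16 the control also listed 213 H3K27me3 peaks, against 94 in 748T and 88 in 106A. The NP23 lines had raised stretches of their own. In 748T the second track stood at 1.57 on chromosome 14 and at 1.57 on chromosome 15, where 106A had 0.949 and 1.11. There the median rank difference to the control was 11.6 and 13.4 points in 748T and -1.41 and 2.22 points in 106A. These values cover whole chromosomes. In 106A the second track was also raised in 3 windows of 5 Mb on chromosome 15, from 5, 35 and 55 Mb. It stood there at 1.246, 1.293 and 1.633, against 0.928 to 1.135 in the chromosome's other windows. Median rank differences in these 3 windows were 15.4, 9.90 and 19.1 points in 106A and 19.3, 14.97 and 21.3 in 748T. Only these windows of chromosome 15 had more than 30% of shared regions higher. In 106A the second track stood at 1.30 on chromosome 3, with a median rank difference of 7.37 points, against -2.64 in 748T. Across the 7 windows of chromosome 5 from 115 to 150 Mb it was 1.40 to 1.63 in 106A, with median rank differences of 8.19 to 21.5 points in 106A and -5.29 to 3.02 in 748T. The region with the largest rank gain, at 140981564 on chromosome 5, lies in that stretch. The part of the second track in the rank differences was not tested. Few widths were called in the blocks. On chromosome 16, 1 of 141 proximal and 0 of 59 distal regions were wider and none was narrower. In the chromosome 6 block 2 of 107 (1.87%) were wider and 4 (3.74%) narrower, against 1.16% and 1.13% of all shared regions. Control-only regions made up 8.26% of all regions in the proximal chromosome 16 block, 23.1% in the distal one and 20.7% in the chromosome 6 block, against 13.7% over all autosomes. The part of the second track in these shares was not tested either.

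**Figure D5:**
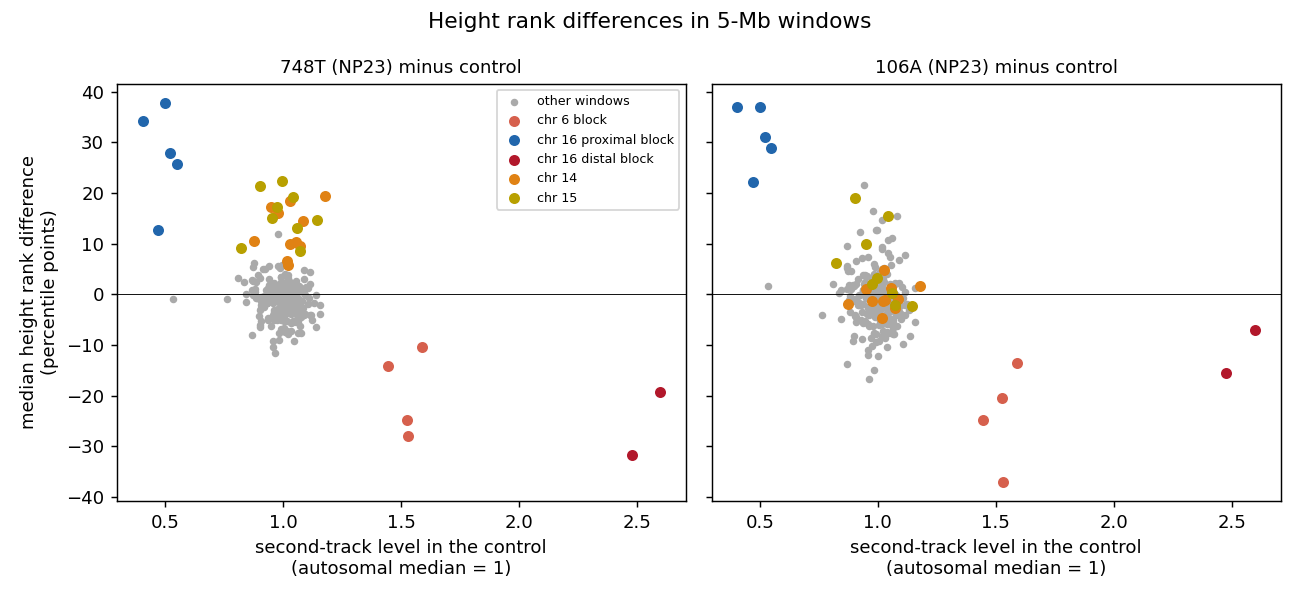
Median height rank difference to the control in percentile points (y axis) against the second-track level in the control relative to its autosomal median (x axis), for 748T (left) and 106A (right), 1 point for each of 268 windows of 5 Mb. Windows of the proximal chromosome 16 block lie at low second-track level and above 0, and those of the chromosome 6 and distal chromosome 16 blocks at high level and below 0.

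Without chromosomes 6, 14, 15 and 16, a choice made after seeing the data, 803 regions were higher (8.74% of the shared regions left) and 821 lower (8.94%). The choice left in chromosome 3 and the stretch of chromosome 5 given above, where the second track of 106A was raised. The regions with the largest rank loss were then chromosome 12 from 82695079 to 82696726 (147 reads in the control, 92 in 748T, 96 in 106A), chromosome 11 from 3863307 to 3865276 (143, 91 and 78 reads) and chromosome 9 from 3403355 to 3405096 (134, 80 and 76 reads). The largest gains were the regions on chromosomes 5 and 3 given above and chromosome 10 from 17441445 to 17445030 (71 reads in the control, 145 and 165 in the NP23 lines). Their widths differed by less than 2-fold, except on chromosomes 3 and 5.

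Few H3K4me3 regions of either kind overlapped H3K27me3, the repressive mark of Polycomb complexes. Of the 848 regions of the NP23 pair, 2 (0.236%, interval 0.0286 to 0.849) overlapped an H3K27me3 peak of the control, against 8 of all 20690 regions (0.0387%). Of the 2835 control-only regions, none overlapped one in the control, 14 (0.494%) overlapped one in 748T and 5 (0.176%) one in 106A. Within 748T itself, 48 of the 848 regions (5.66%, interval 4.20 to 7.44) carried both marks. H3K27me3 of 748T met 208 of all 20690 regions (1.01%), but these include regions without an H3K4me3 peak of 748T. Among the other patterns that 748T listed, the share was 0.513% for all 3 lines, 2.65% for 748T alone and 0.490% for 748T with the control. In 106A the count was 9 of 848 (1.06%) against 0.358% of all regions, which again include regions without a 106A peak. The 106A share was 0.156% for regions of all 3 lines, 0.119% for 106A alone and 0% for 106A with the control. The control's H3K27me3 list was the shortest, with 4868 autosomal peaks against 8362 in 748T and 5424 in 106A. In the 160 kb around the chromosome 6 domain it held 1 peak of 0.536 kb, 748T had 3 and 106A had none.

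The C57BL/6 line 961C, which stems from acute myeloid leukaemia (AML) with NP23, had no part in the calls. Its H3K4me3 peaks met 376 of the 848 regions of the NP23 pair (44.3%, interval 41.0 to 47.8) and 329 of the 2835 control-only regions (11.6%, interval 10.4 to 12.8). The pattern of 748T and control without 106A gave 36.9%, that of 106A and control without 748T 22.6%, and regions of all 3 lines 87.3%. Regions of 748T alone gave 22.6% and those of 106A alone 14.7%, the patterns that, like the control-only one, need a single list. Over all regions the share was 56.5%. NP23 itself, mapped in 961C with an antibody to the V5 tag, met 8 of 848 regions of the NP23 pair (0.943%, interval 0.408 to 1.85), 5 of 2835 control-only regions (0.176%) and 236 of 10922 shared regions (2.16%), against 290 of all 20690 regions (1.40%). The interval of the NP23 pair includes that share. It met 3 of the 127 wider regions (2.36%) and 1 of the 123 narrower ones (0.813%). The chromosome 6 domain from 52165648 to 52185472 was 98.3% covered by NP23 peaks of 961C and 100% by its H3K4me3, and the chromosome 19 region at 32828950 was 1.35% and 85.6% covered. None of the 8 widest control-only regions met an H3K4me3 or NP23 peak of 961C. Of all control-only regions of 500 bp or more, 16.2% met its H3K4me3 and 0.484% its NP23 peaks. Among the 8 widest of the NP23 pair, those on chromosome 11 (88934688), chromosome 19 (58525893) and chromosome 7 (75096761) also met neither. The others met its H3K4me3, but only the chromosome 6 domain and the chromosome 19 region at 32828950 met NP23.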

How the data were processed

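Chromatin was fixed with 1% formaldehyde for 15 min, sonicated and immunoprecipitated, per the labels' protocols. CASAVA 1.9 and BWA 0.5.9-r26 with build mm9 are named in the submitters' processing notes. Peak caller and threshold: not given in the sources used here. The deposited lists, made by the authors, have the peaks of 1 library each, with mean and maximum pileup height of the sample and of a second track in a text field (heights from the values, with no header). From these, scipy 1.17.1, pandas 2.3.3, numpy 2.4.6 and matplotlib 3.10.9 under Python 3.11.15 were used to merge peaks that share at least 1 bp, sum peak widths (end minus start) per line and region, and rank maximum heights, ties averaged, over the regions of all 3 lists so that each list ranks the same regions. Starts are printed 1-based. Calls needed a 2-fold width ratio or 20 rank points in both NP23 lines. Shares carry exact Clopper-Pearson 95% intervals. Merging and calls were run on simulated lists with planted differences, as a check of the code only. The simulated widths varied far less than those of the 3 lines, so the run says nothing on how often real calls are wrong. Named were the 8 widest regions of each presence difference, the 5 regions each with the largest smaller-of-both width or rank difference, and regions chosen after their values were seen (the flanks of named regions, runs, blocks). The members and lists were chosen with earlier results of these data known. Genes were not assigned to peaks because the gene and promoter tables at hand are on GRCm38.p6. The Hoxa cluster is placed from general knowledge, and no value rests on that. The gene lists drawn up for this comparison were not used for the same reason. Alternatives were other joining, coverage, height, width, fold and rank settings, leaving out chromosomes 14 and 15 or each NP23 line, and, added after seeing the data, leaving out chromosomes 6, 14, 15 and 16.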

Additional observations from a re-analysis of the deposited data

How the results depend on the processing

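Of 56 alternative counts, 31 stayed within 1.5 times the value reported. Stricter peak thresholds lowered the presence counts, and the total of regions with them. With the taller 50% of each list, 382 regions of the NP23 pair (4.03% of 9473) and 612 of the control alone (6.46%) were left. With 7896 peaks per list the counts were 516 (5.70% of 9050) and 563 (6.22%). The shares over the full lists were 4.10% and 13.7%, so only that of the control alone fell clearly. In these settings a missing peak may be listed below the height cut. Of the control-only regions in the full lists, 1032 were 500 bp or more. Leaving out 1 NP23 line raised the counts, since 1 line no longer had to agree. Without 748T they were 2664 for NP23 without control, 4361 for control alone, 451 wider, 608 narrower, 1848 higher and 1814 lower. Without 106A they were 3241, 3740, 351, 720, 1354 and 1341 in the same order. A 1.5-fold limit gave 282 wider and 323 narrower regions, and a 3-fold limit 45 and 29. The widest single peak in place of the summed width gave 185 narrower regions. With 10 rank points 1892 regions were higher and 2034 lower, with 30 points 445 and 476, and with ranks in the whole list 482 and 613. No paired analysis was possible because the control group has 1 line and the labels give no replicate numbers.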
